A study of Mus musculus with 10 samples.

Results

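The 10 genes described here, Fos, Fosb, Jun, Junb, Jund, Egr1, Atf3, Ier2, Dusp1 and Btg2, are immediate early genes, and they are 10 of the 16290 genes in the deposited RNA-seq table. They were picked by symbol, with earlier results of these data known. Each matched 1 row, and all 10 passed the filter on low values. The study measured which genes differ in mammary epithelial cells of FVB mice when a protein arginine methyltransferase (PRMT) is overexpressed. Cells came from the #3 and #4 mammary glands, were released with enzymes and collected by pulse centrifugation. There were 2 libraries of the genotype NIC, 3 of NIC-Prmt1, 3 of NIC-Carm1 and 2 of NIC-Prmt6, so the allele or alleles that NIC stands for, which the labels do not spell out, are shared by all 10 libraries, controls included. The labels give neither the promoter that drives each PRMT, nor the age of the mice, nor whether libraries came from separate animals. The p-values below therefore measure the spread between these libraries, which may be technical.

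Immediate early genes are transcribed within minutes of a stimulus without needing new protein synthesis. Growth factor signals reach them through the ERK, p38 and JNK kinases, which activate serum response factor with its partners and the CREB and ATF factors already bound at their promoters. FOS and JUN proteins pair through leucine zippers to form AP-1, which binds DNA only as a dimer. EGR1 is a zinc finger factor, and ATF3 is a stress-induced relative of CREB. Products such as DUSP1, a phosphatase that inactivates MAP kinases, feed back on the pathway. In the mammary gland these genes respond to growth factor receptors, and in many tissues they are also known to rise when cells are cut and digested out of the organ.

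All 10 libraries were deep enough that counting noise is small for these genes, with 21589274 to 30260921 reads recovered per library. The luminal markers Krt8 (36003 to 101706 normalised reads), Krt18, Epcam and Cdh1 were present in every library. Prmt6 was higher in NIC-Prmt6 (873 to 909 normalised reads) than in NIC (387 to 451). Carm1 was at 2146 to 2479 in NIC-Carm1 against 1556 to 1567 in NIC, but it was also at 2025 to 2432 in the other PRMT genotypes. Prmt1 was at 2702 to 3258 in the libraries labelled NIC-Prmt1 and at 2675 to 3077 in NIC, so its level does not check that label, and NIC-Prmt1 below means the libraries so labelled. NIC-Carm1 replicates 2 and 3, and NIC-Prmt6 replicates 1 and 2, were nearly identical to each other. The chi-square of their reads per degree of freedom was 2.44 to 2.69, against 27.99 to 105 for the other pairs within a group. Counts of calls with each such pair averaged into 1 library are therefore given beside the main ones, which leaves NIC-Prmt6 with 1 library. In that fit 9.07% of all genes were called higher and 7.50% lower in NIC-Prmt1 against NIC, 0.567% and 1.599% in NIC-Carm1, and 6.89% and 3.71% in NIC-Prmt6.

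To show the DNA in front of the RefSeq starts of these genes, the bases upstream of that start site are printed for the 6 members in which the stretch holds one of the motifs searched. The sequences are RefSeq's for GRCm38.p6, read 5′ to 3′ on the strand of the gene, from 200 bases before the start up to the start or to the first annotated transcribed base. Capitals mark matches to TGACG (the core bound by CREB and ATF dimers), TGACNTCA, TGACGTCA (the full cyclic AMP response element) or GCGNGGGCG (an EGR-type site).
Fos (chr12:85473690-85473889, plus strand): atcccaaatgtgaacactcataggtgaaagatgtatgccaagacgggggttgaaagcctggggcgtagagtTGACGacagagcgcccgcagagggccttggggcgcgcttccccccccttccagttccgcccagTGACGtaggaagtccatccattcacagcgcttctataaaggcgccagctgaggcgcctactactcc
Fosb (chr7:19310052-19310245, minus strand): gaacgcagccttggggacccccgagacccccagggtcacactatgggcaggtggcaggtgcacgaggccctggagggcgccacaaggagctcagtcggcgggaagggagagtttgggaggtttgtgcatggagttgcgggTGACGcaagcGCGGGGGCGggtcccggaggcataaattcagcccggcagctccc
Jun (chr4:95052223-95052422, minus strand): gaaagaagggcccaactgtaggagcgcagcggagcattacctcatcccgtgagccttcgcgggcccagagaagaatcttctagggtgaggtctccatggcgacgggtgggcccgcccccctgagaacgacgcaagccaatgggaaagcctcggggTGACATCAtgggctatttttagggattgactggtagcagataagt
Junb (chr8:84978749-84978948, minus strand): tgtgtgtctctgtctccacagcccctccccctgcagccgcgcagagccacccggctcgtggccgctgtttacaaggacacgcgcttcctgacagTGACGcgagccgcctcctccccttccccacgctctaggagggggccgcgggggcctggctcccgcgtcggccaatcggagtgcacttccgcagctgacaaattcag
Dusp1 (chr17:26508520-26508672, minus strand): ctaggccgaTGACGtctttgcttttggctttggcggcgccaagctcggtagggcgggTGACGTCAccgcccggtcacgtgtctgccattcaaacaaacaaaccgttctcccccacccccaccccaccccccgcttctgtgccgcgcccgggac
Btg2 (chr1:134079156-134079355, minus strand): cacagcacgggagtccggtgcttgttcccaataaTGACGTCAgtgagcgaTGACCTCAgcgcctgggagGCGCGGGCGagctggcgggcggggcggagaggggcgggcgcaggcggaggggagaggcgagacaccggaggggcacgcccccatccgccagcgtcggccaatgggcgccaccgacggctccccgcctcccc
RefSeq promoter windows were matched for 8 of the 10 genes, all but Egr1 and Ier2. The bases before the start in the Jund window end at 70697738, upstream of the 70698949 at which GENCODE starts the gene. The absence of matches in that window therefore does not describe the DNA directly in front of the GENCODE start. The Dusp1 and Atf3 windows lie inside the spans that GENCODE gives these genes, which start on the minus strand at 26562128 and 191218039. Matches in these windows therefore describe DNA in front of a RefSeq start that lies within the GENCODE gene. In windows of 300 bases, 250 before to 50 after the start and read on both strands, TGACG was in 6 of the 8, and in 20.8% of all 32817 promoters. The 8-base palindrome TGACGTCA was in Dusp1 and Btg2, and in 1.79% of all promoters. It holds TGACG on both strands and is also a TGACNTCA, which was in Jun, Dusp1 and Btg2 and in 8.84% of all promoters. GCGNGGGCG was in Fosb and Btg2 and in 5.56% of all promoters. The AP-1 letters TGANTCA (7.81% of all promoters) and the CArG box bound by serum response factor (1.63%) were in none of the 8 windows, which says only that these letters are not in this stretch. The matches are descriptions and were not tested against the RNA levels.

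Together these genes took up more of the RNA in NIC-Prmt1 and NIC-Prmt6 than in NIC. Their reads made up 1.36% and 1.15% of the library in NIC, 2.35%, 2.27% and 2.66% in NIC-Prmt1, 1.22%, 1.69% and 1.63% in NIC-Carm1, and 2.13% and 2.11% in NIC-Prmt6. The exact 95% binomial interval, which covers counting error only, ran from 1.15% to 1.16% in the lowest library, NIC replicate 2, and from 2.66% to 2.67% in the highest, NIC-Prmt1 replicate 3. The 5 libraries of NIC-Prmt1 and NIC-Prmt6 were all above the 5 of NIC and NIC-Carm1. In every NIC-Prmt1 library 3 of these genes, and in both NIC-Prmt6 libraries 2, were among the 10 genes with most reads, while in NIC none was. Levels per kilobase of exon, averaged over the 10 libraries, ran from 40203 for Fos, through Junb (24614), Jun (22999), Atf3 (21617), Jund (17474), Egr1 (15118), Fosb (10717), Ier2 (7146) and Btg2 (6951), to 3599 for Dusp1.

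**Figure D1:**
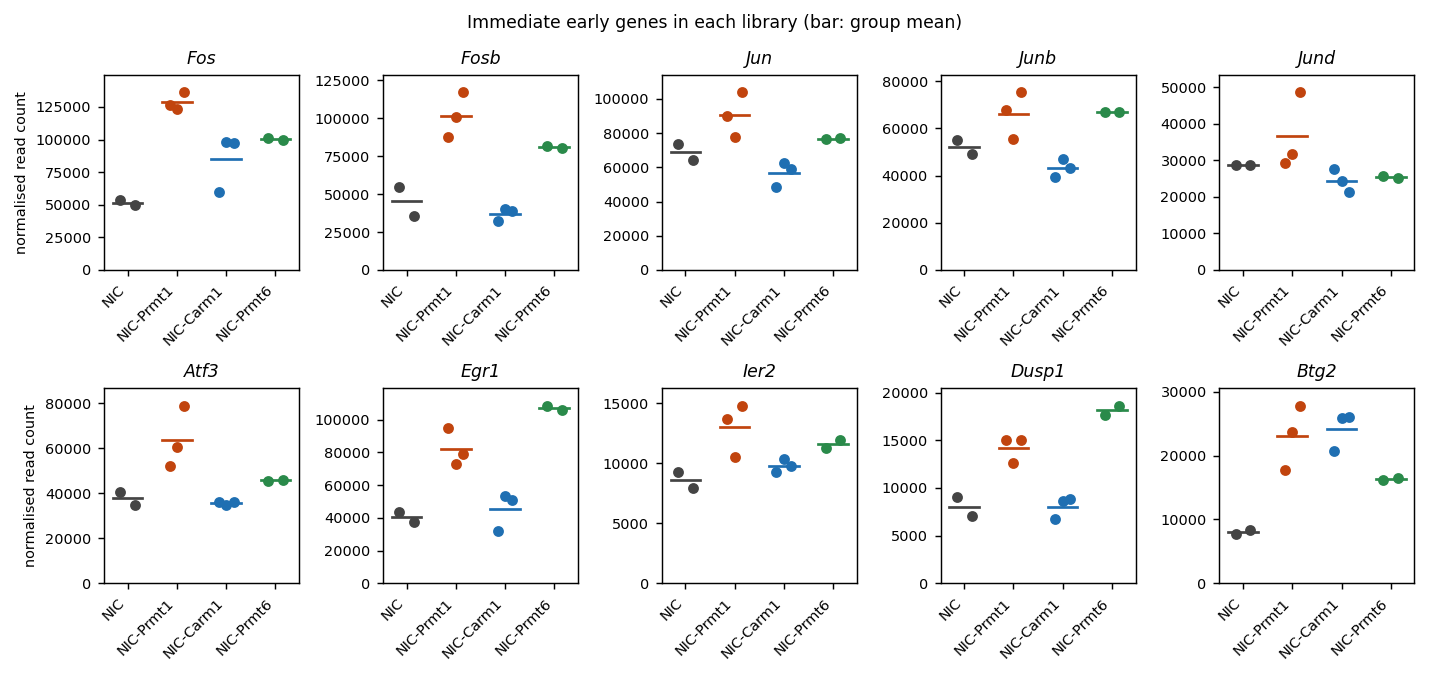
Normalised read count (linear axis from 0) of each of the 10 genes in every library, with 1 point per library, coloured by genotype, and a bar at the group mean. Fos, Fosb, Egr1 and Dusp1 are higher in all NIC-Prmt1 and NIC-Prmt6 libraries than in both NIC libraries, while Btg2 is higher in all 8 PRMT libraries.

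Tested with limma over 15694 genes, 7 of the 10 genes rose in NIC-Prmt1 against NIC and 0 fell, where 15.2% of all genes were called higher and 14.4% lower. In NIC-Carm1 against NIC only Btg2 was called, as higher, beside backgrounds of 6.65% higher and 9.36% lower. In NIC-Prmt6 against NIC, 5 rose and 0 fell, against 19.0% and 17.8% of all genes. The counts of 0 lower were also 0 at an unadjusted p under 0.05 in limma, edgeR and DESeq2, in each of these 3 comparisons. The median log2 difference over the 10 genes was 0.79 in NIC-Prmt1, -0.04 in NIC-Carm1 and 0.66 in NIC-Prmt6, where the median over all genes lay between -0.01 and 0.00. The 3 comparisons share the same NIC libraries. Because the 10 genes were chosen with earlier results of these data known, their counts beside the shares of all genes are descriptions and no test of the set. With nearly identical libraries averaged, 6 genes were higher in NIC-Prmt1, 1 in NIC-Carm1 and 2 (Egr1 and Dusp1) in NIC-Prmt6. NIC replicate 2 was the lower of the NIC libraries for every gene but Btg2, and leaving it out leaves NIC with 1 library. Calls were then lost among the 10 genes and over the whole table, in both NIC-Prmt1 and NIC-Prmt6. The members that lost their calls had log2 differences of 0.90 (Egr1), 0.63 (Atf3) and 0.48 (Ier2) in NIC-Prmt1. In NIC-Prmt6 they had 0.91 (Fos) and 0.58 (Fosb). These are bulk samples, in which more cells of a type and more RNA per cell cannot be told apart.

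**Figure D2:**
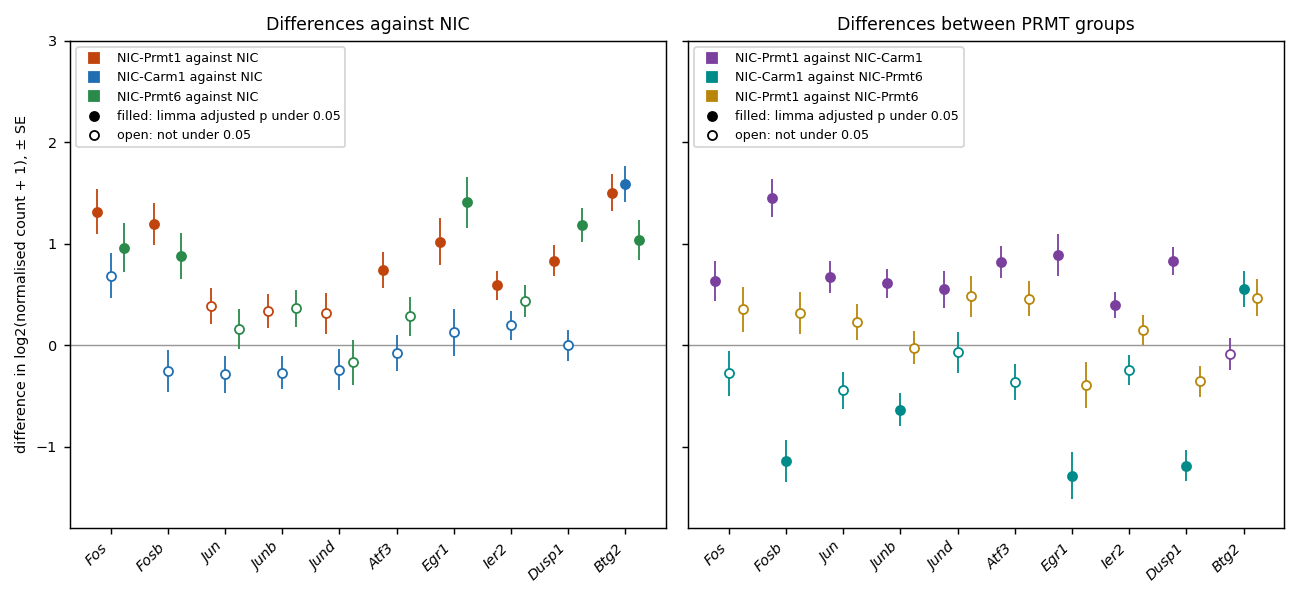
Difference in log2(normalised count + 1) between groups for each gene, with the standard error from limma as a vertical line; filled points have an adjusted p under 0.05 and open points do not. Left, the 3 PRMT genotypes against NIC; right, the PRMT genotypes against each other. Btg2 is filled for all 3 genotypes on the left, and Jun, Junb and Jund for none.

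Fos and Fosb rose in NIC-Prmt1 and in NIC-Prmt6. Fos, a subunit that needs a JUN partner to bind DNA (chromosome 12, 85473890 to 85477273, plus strand, GENCODE on GRCm38, the build of the files), was at 53398 and 49934 normalised reads in NIC. It was at 126439, 123071 and 136229 in NIC-Prmt1, at 60055, 97768 and 97505 in NIC-Carm1, and at 101398 and 99774 in NIC-Prmt6. Every PRMT library was above both NIC libraries, and NIC-Carm1 replicate 1 lay well below its 2 group mates. The mean rose from 51666 ± 2449 (SD, n = 2) in NIC to 128579 ± 6835 (n = 3) in NIC-Prmt1, a log2 difference of 1.31 ± 0.22 (SE; limma adjusted p = 0.00305). In NIC-Prmt6 the log2 difference was 0.96 ± 0.24 (limma adjusted p = 0.0121). With nearly identical libraries averaged, the latter was no longer called (limma adjusted p = 0.104). In NIC-Carm1 it was 0.69 ± 0.22, which missed the threshold (limma adjusted p = 0.0611). Over the alternatives tried that p ran from 0.00204 to 0.298. Fos in NIC-Carm1 passed in edgeR (adjusted p = 0.0386), in DESeq2 (adjusted p = 0.00204) and in limma without NIC-Carm1 replicate 1 (adjusted p = 0.00538). The Fos promoter printed above holds TGACG at -129 and at -66.

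Fosb, a second AP-1 subunit of the FOS family (chromosome 7, 19302696 to 19310051, minus strand), followed Fos in NIC-Prmt1 and NIC-Prmt6 but not in NIC-Carm1. Its normalised reads were 54496 and 35796 in NIC, 87536, 100480 and 117001 in NIC-Prmt1, 32419, 40371 and 38560 in NIC-Carm1, and 81847 and 80577 in NIC-Prmt6. NIC-Carm1 overlapped NIC, whose 2 libraries differed 1.52-fold from each other. The log2 difference from NIC was 1.19 ± 0.21 in NIC-Prmt1 (limma adjusted p = 0.00351) and 0.88 ± 0.23 in NIC-Prmt6 (limma adjusted p = 0.0136). Averaging the nearly identical libraries ended the NIC-Prmt6 call (limma adjusted p = 0.120). In NIC-Carm1 it was -0.26 ± 0.21 (limma adjusted p = 0.429).

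None of the 3 JUN genes passed in a comparison with NIC in the limma fit of all 10 libraries. Jun, the AP-1 subunit that can also pair with itself (chromosome 4, 95049034 to 95052222, minus strand), was at 73712 and 64265 normalised reads in NIC. In NIC-Prmt1 it was at 89770, 77992 and 103874, in NIC-Carm1 at 48313, 62704 and 59314, and in NIC-Prmt6 at 76632 and 76873. The 3 NIC-Prmt1 libraries were above NIC and the 3 NIC-Carm1 libraries below it, by margins close to the spread within groups. The log2 difference from NIC was 0.39 ± 0.18 in NIC-Prmt1 (limma adjusted p = 0.130; in DESeq2, adjusted p = 0.0378), -0.29 ± 0.18 in NIC-Carm1 and 0.16 ± 0.20 in NIC-Prmt6.

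Junb, an AP-1 subunit that activates transcription more weakly than JUN (chromosome 8, 84974484 to 84978718, minus strand), had 54869 and 49316 normalised reads in NIC and 67945, 55567 and 75264 in NIC-Prmt1. It had 39324, 46949 and 43352 in NIC-Carm1 and 66805 and 66988 in NIC-Prmt6. The order of the group means was NIC-Carm1, NIC, NIC-Prmt1 and NIC-Prmt6, and the last pair overlapped. Against NIC, the log2 difference was 0.34 ± 0.16 in NIC-Prmt1 (limma adjusted p = 0.141; in DESeq2, adjusted p = 0.0465), -0.27 ± 0.16 in NIC-Carm1 and 0.36 ± 0.18 in NIC-Prmt6. Fitting NIC-Prmt6 and NIC alone called Junb higher (limma adjusted p = 0.0311).

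Jund, the JUN family member known for its steady, less inducible expression (chromosome 8, 70698949 to 70700616, plus strand), was not called against NIC in any genotype. Its normalised reads were 28703 and 28680 in NIC, 29264, 31841 and 48633 in NIC-Prmt1, 27530, 24464 and 21316 in NIC-Carm1, and 25726 and 25312 in NIC-Prmt6. NIC-Prmt1 replicate 3 stood apart from all other libraries. Its log2 differences from NIC lay between -0.24 and 0.31, and no alternative called any of them. Exons of Jun and Jund overlap an antisense gene, and exons of Junb and Dusp1 overlap Prdx2 and Ergic1 on the opposite strand. No source used here gives the strand setting of the counting, so reads in those overlaps are uncertain. Prdx2 was at 3560 to 5678 and Ergic1 at 2199 to 3353 normalised reads.

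Atf3, which encodes a stress-induced bZIP factor that pairs with itself or with JUN (chromosome 1, 191170296 to 191218039, minus strand), rose in NIC-Prmt1 only among the comparisons with NIC. It stood at 40586 and 34848 normalised reads in NIC, 52008, 60662 and 78957 in NIC-Prmt1, 36128, 34906 and 35945 in NIC-Carm1, and 45640 and 45950 in NIC-Prmt6. NIC-Carm1 lay within the range of NIC, and NIC-Prmt6 lay between NIC and NIC-Prmt1. The log2 difference in NIC-Prmt1 was 0.74 ± 0.17 (limma adjusted p = 0.0122). That call was lost with the 2 groups fitted alone (limma adjusted p = 0.0691), with nearly identical libraries averaged (limma adjusted p = 0.0512) and without NIC replicate 2 (limma adjusted p = 0.0927). In NIC-Prmt6 it was 0.28 ± 0.19 (limma adjusted p = 0.268).

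Egr1, a zinc finger factor of the early response (chromosome 18), was the gene with the largest log2 difference in NIC-Prmt6. It had 43823 and 37139 normalised reads in NIC, 94606, 73079 and 79191 in NIC-Prmt1, 31664, 53122 and 50860 in NIC-Carm1, and 108542 and 105854 in NIC-Prmt6. Both NIC-Prmt6 libraries were above all others, and NIC-Carm1 overlapped NIC on both sides. From a mean of 40481 ± 4726 (SD, n = 2) in NIC it reached 107198 ± 1901 (n = 2) in NIC-Prmt6, a log2 difference of 1.41 ± 0.25 (limma adjusted p = 0.00256). The rise in NIC-Prmt1 was 1.02 ± 0.23 (limma adjusted p = 0.0102), and it was not called without NIC replicate 2 (limma adjusted p = 0.0794).

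Ier2, an early growth factor response gene (chromosome 8, 84661331 to 84662852, minus strand), had small differences at a lower level. Its normalised reads were 9254 and 7892 in NIC, 13713, 10523 and 14790 in NIC-Prmt1, 9281, 10348 and 9762 in NIC-Carm1, and 11283 and 11913 in NIC-Prmt6. All PRMT libraries were above both NIC libraries, NIC-Carm1 replicate 1 by a narrow margin. The log2 difference was 0.59 ± 0.14 in NIC-Prmt1 (limma adjusted p = 0.0143). It was 0.44 ± 0.16 in NIC-Prmt6 (limma adjusted p = 0.0520), and 7 of 21 alternatives put the latter past the threshold. The NIC-Prmt1 call was lost with the 2 groups fitted alone (limma adjusted p = 0.0578) and without NIC replicate 2 (limma adjusted p = 0.110).

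Dusp1, the MAP kinase phosphatase that acts on p38, JNK and ERK (chromosome 17, 26505590 to 26562128, minus strand), rose in NIC-Prmt1 and in NIC-Prmt6, and was not called in NIC-Carm1. Its normalised reads were 9054 and 7020 in NIC, 15014, 12631 and 15068 in NIC-Prmt1, 6703, 8606 and 8794 in NIC-Carm1, and 17650 and 18638 in NIC-Prmt6. The NIC-Prmt6 libraries were the highest, the NIC-Prmt1 libraries came next without overlap, and NIC-Carm1 overlapped NIC. The log2 difference from NIC was 0.83 ± 0.15 in NIC-Prmt1 (limma adjusted p = 0.00457) and 1.19 ± 0.17 in NIC-Prmt6 (limma adjusted p = 8.62e-04). Between these 2 genotypes the log2 difference, NIC-Prmt1 minus NIC-Prmt6, was -0.35 ± 0.15 and was not called (limma adjusted p = 0.183). The NIC-Carm1 mean of 8034 ± 1157 (SD, n = 3) lay beside 8037 ± 1439 (n = 2) in NIC, and the 95% interval of the log2 difference ran from -0.34 to 0.34.

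Btg2, which encodes an antiproliferative protein known to bind PRMT1 and the CCR4-NOT deadenylase (chromosome 1, 134075170 to 134079120, minus strand), was the only gene of the 10 called higher by limma in all 3 PRMT genotypes. In edgeR and DESeq2, Fos was also called in NIC-Carm1, as given above. It was at 7675 and 8333 normalised reads in NIC, 17775, 23630 and 27836 in NIC-Prmt1, 20700, 25870 and 26060 in NIC-Carm1, and 16231 and 16566 in NIC-Prmt6. All 8 PRMT libraries were far above both NIC libraries, and NIC-Prmt6 was the lowest of the 3 genotypes. The log2 difference was 1.505 ± 0.18 in NIC-Prmt1 (limma adjusted p = 8.02e-04) and 1.59 ± 0.18 in NIC-Carm1 (limma adjusted p = 9.57e-04). In NIC-Prmt6 it was 1.04 ± 0.20 (limma adjusted p = 0.00341), or an adjusted p of 0.0501 in limma with nearly identical libraries averaged. The Btg2 promoter printed above is the only one of the 6 with both TGACGTCA, at -166, and a second TGACNTCA, at -150.

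Set against each other, the called differences lay between NIC-Carm1 and the other two PRMT genotypes. NIC-Prmt1 was above NIC-Carm1 in 9 of the 10 genes and below it in 0, where 14.9% of all genes were called higher and 11.8% lower. The count of 0 lower was also 0 at an unadjusted p under 0.05 in limma, edgeR and DESeq2. Fosb led with a log2 difference of 1.45 ± 0.18 (limma adjusted p = 0.00150). Egr1 (0.89 ± 0.21), Dusp1 (0.83 ± 0.14), Atf3 (0.82 ± 0.16), Jun (0.67 ± 0.16) and Junb (0.61 ± 0.15) followed, with limma adjusted p between 0.00349 and 0.0142. Fos (0.63 ± 0.20), Jund (0.55 ± 0.18) and Ier2 (0.40 ± 0.13) were close to the threshold, with limma adjusted p of 0.0401, 0.0474 and 0.0464. The last 3 lost their calls in 12, 11 and 13 of 21 alternatives. Btg2 did not pass in this comparison (-0.09 ± 0.16, limma adjusted p = 0.725). Over the whole table, 4199 of 15694 genes were called in either direction in the fit of all 10 libraries, and 2825 in the fit on these 2 groups alone. Fewer genes than in either fit were called with nearly identical libraries averaged. With the 2 groups fitted alone 4 of the 10 genes were higher, and with nearly identical libraries averaged 3 (Fosb, Egr1 and Dusp1) were.

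NIC-Carm1 was below NIC-Prmt6 in 4 genes and above it in 1, beside 20.9% of all genes called lower and 18.4% higher. The 4 lower genes were Egr1 (-1.28 ± 0.23, limma adjusted p = 0.00239), Dusp1 (-1.19 ± 0.15, limma adjusted p = 4.78e-04), Fosb (-1.14 ± 0.21, limma adjusted p = 0.00259) and Junb (-0.63 ± 0.16, limma adjusted p = 0.0129). The higher gene was Btg2 (0.55 ± 0.18, limma adjusted p = 0.0336). Its call was lost without NIC-Carm1 replicate 2 or 3 and without either NIC-Prmt6 library, where the count higher is 0. Averaging nearly identical libraries left 2 lower genes, Egr1 and Dusp1, and 0 higher. The fit on these 2 groups alone called 7 lower. That fit called 7065 of all 15694 genes in either direction, against 6157 in the fit of all 10 libraries. Averaging nearly identical libraries lowered the count over the whole table too.

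Between NIC-Prmt1 and NIC-Prmt6 no gene of the 10 passed in limma or edgeR, beside 2.54% of all genes called higher and 4.94% lower. At an unadjusted p under 0.05 in limma, Jund, Atf3 and Btg2 were higher in NIC-Prmt1 and Dusp1 was lower, and DESeq2 called 1 gene, Atf3 (adjusted p = 0.0319). Without NIC-Prmt1 replicate 1, limma called 2 genes higher, Atf3 and Btg2. The 95% interval of the log2 difference for Egr1 ran from -0.90 to 0.12 and that for Fos from -0.14 to 0.84, so differences of these sizes were not excluded in either gene. Junb had a difference of -0.03, which was 0.05 after upper-quartile rescaling.

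Among the transcripts of Fos, Fosb, Jun, Junb and Jund, the make-up shifted toward Fos and Fosb in the PRMT genotypes. The FOS family members Fosl1 and Fosl2 are left out of these shares. Fosl1 went the other way, at 3573 and 2035 normalised reads in NIC, 1343 to 1846 in NIC-Prmt1, 304 to 639 in NIC-Carm1 and 1474 to 1539 in NIC-Prmt6. Per kilobase of exon, Fos and Fosb together held 32.9% and 31.4% of the summed level of the 5 genes in NIC. They held 47.4%, 50.3% and 44.8% in NIC-Prmt1, 38.7%, 46.7% and 48.7% in NIC-Carm1, and 45.1% and 44.7% in NIC-Prmt6. All 8 PRMT libraries were above NIC, with NIC-Carm1 replicate 1 the nearest to it. The ratio of Fos to Jun, per kilobase, was 0.98 and 1.05 in NIC and between 1.69 and 2.23 in the PRMT libraries. Fosb relative to Fos was 0.384 and 0.270 in NIC, 0.261 to 0.324 in NIC-Prmt1, 0.304 in both NIC-Prmt6 libraries, and 0.149 to 0.203 in NIC-Carm1. NIC-Carm1 thus had a higher share of Fos with the lowest share of Fosb, at 6.29% to 6.53% of the 5 genes. The share of Fosb was 9.13% in NIC replicate 1 and, close to NIC-Carm1, 6.69% in NIC replicate 2. These shares are descriptions of transcript levels and do not measure dimers.

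**Figure D3:**
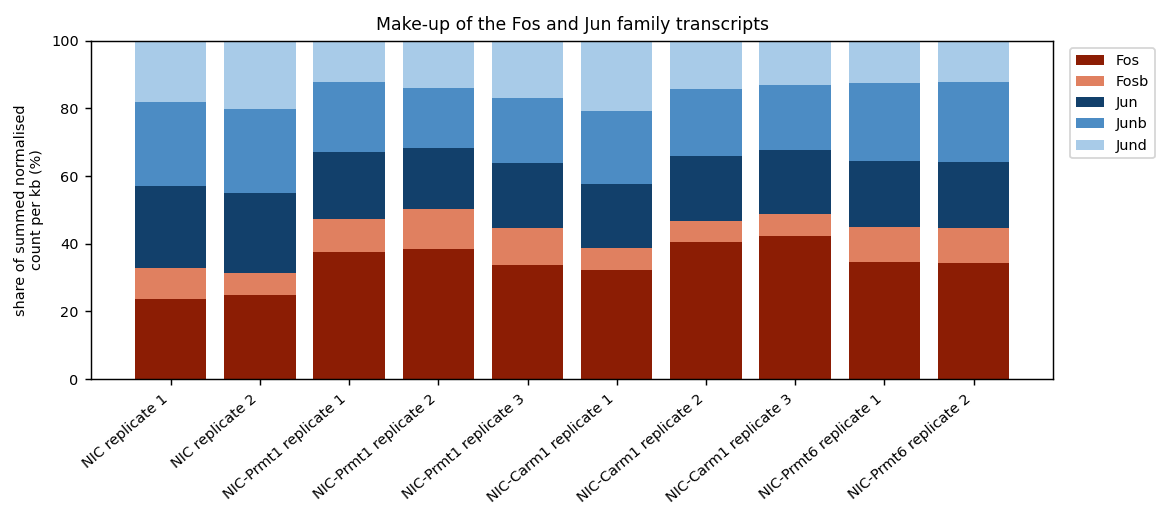
Share (%) of Fos, Fosb, Jun, Junb and Jund in their summed normalised count per kilobase of exon, as a stacked bar from 0 to 100 for each of the 10 libraries. The 2 red parts (Fos and Fosb) end at 31.4% to 32.9% in NIC and at 38.7% to 50.3% in the PRMT libraries.

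Several lists of cell type markers, also chosen with earlier results of these data known, moved in the same libraries. Beside the counts below, limma called 15.2%, 6.65% and 19.0% of all genes higher in NIC-Prmt1, NIC-Carm1 and NIC-Prmt6 against NIC. It called 14.4%, 9.36% and 17.8% lower. Some of the smaller counts, such as 1 of 5 adipocyte and 2 of 8 basal markers higher in NIC-Prmt6, are near these shares and are no result about those lists. The 7 endothelial markers summed to 1027 to 1246 CPM (a read count set relative to all reads of its library) in NIC, 2148 to 3078 in NIC-Prmt1, 1127 to 1451 in NIC-Carm1 and 2711 to 2719 in NIC-Prmt6, and all 7 were called higher by limma in NIC-Prmt1 and in NIC-Prmt6, 0 in NIC-Carm1. Of 5 pericyte markers, 5, 3 and 5 were called higher in NIC-Prmt1, NIC-Carm1 and NIC-Prmt6, with sums of 345 to 371 CPM in NIC, 787 to 1210, 509 to 684 and 1072 to 1112. Of 6 fibroblast markers, 4, 0 and 6 were called higher, with sums of 2835 to 3487 CPM in NIC, 4476 to 6160, 3170 to 3673 and 10897 to 10954. The 8 luminal markers summed to 9199 to 11276 CPM in NIC, 6338 to 8910 in NIC-Prmt1, 5854 to 7095 in NIC-Carm1 and 5859 to 5884 in NIC-Prmt6. The 8 basal and myoepithelial markers summed to 1360 to 1640 CPM in NIC, 3165 to 5714 in NIC-Prmt1, 1666 to 1802 in NIC-Carm1 and 2010 to 2014 in NIC-Prmt6. Of 8 luminal markers, 1, 0 and 0 were called higher and 3, 5 and 6 lower, and of 8 basal and myoepithelial markers 7, 0 and 2 were called higher. Of 5 adipocyte markers, 1, 0 and 1 were called higher and 0, 1 and 0 lower, with sums of 251 to 299 CPM in NIC, 612 to 943, 342 to 365 and 1096 to 1126. Their median log2 differences were -0.23 in NIC-Prmt1, -0.62 in NIC-Carm1 and 1.90 in NIC-Prmt6. In NIC-Prmt1 and NIC-Carm1 the higher sums therefore do not describe most of this list. Of 5 skeletal muscle markers, 2, 2 and 1 were called higher, with sums of 7.18 to 12.6 CPM in NIC, 11.5 to 57.7, 19.4 to 62.4 and 13.7 to 15.6. Skin keratinocyte genes reached 968 CPM in 1 NIC-Prmt1 library against at most 3.56 CPM in NIC, with Lor, Krt25 and Krt77 at 0 reads in at least 1 library. The 5 milk genes summed to 5567 to 5668 CPM in NIC, 1819 to 3764 in NIC-Prmt1, 5647 to 30659 in NIC-Carm1 and 1130 to 1161 in NIC-Prmt6. Of these 5, 0 were called higher in any genotype, and 1, 0 and 3 were called lower. The sum of 30659 CPM was in NIC-Carm1 replicate 1, the library with the lowest Fos of its group. Of 6 macrophage markers, 2, 2 and 6 were called higher, with sums of 135 to 164 CPM in NIC, 157 to 278, 207 to 378 and 487 to 495. Of 6 hormone-sensing luminal markers, 4, 0 and 3 were called higher, with sums of 524 to 687 CPM in NIC, 1285 to 1481, 560 to 998 and 1010 to 1018. T cell, B cell and neutrophil lists summed to at most 38.1 CPM in every library, with Ms4a1 and S100a9 at 0 reads in at least 1. With nearly identical libraries averaged, the markers called higher in the same order numbered 7, 0 and 5 for endothelium, 5, 3 and 5 for pericytes, 3, 0 and 6 for fibroblasts, 2, 1 and 3 for macrophages, 5, 0 and 0 for basal cells, 4, 0 and 1 for hormone-sensing cells, 1, 0 and 1 for adipocytes and 0, 0 and 0 for skeletal muscle. The luminal markers called lower then numbered 2, 0 and 2. The part of these cell types in the differences of the 10 genes was not tested.

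**Figure D4:**
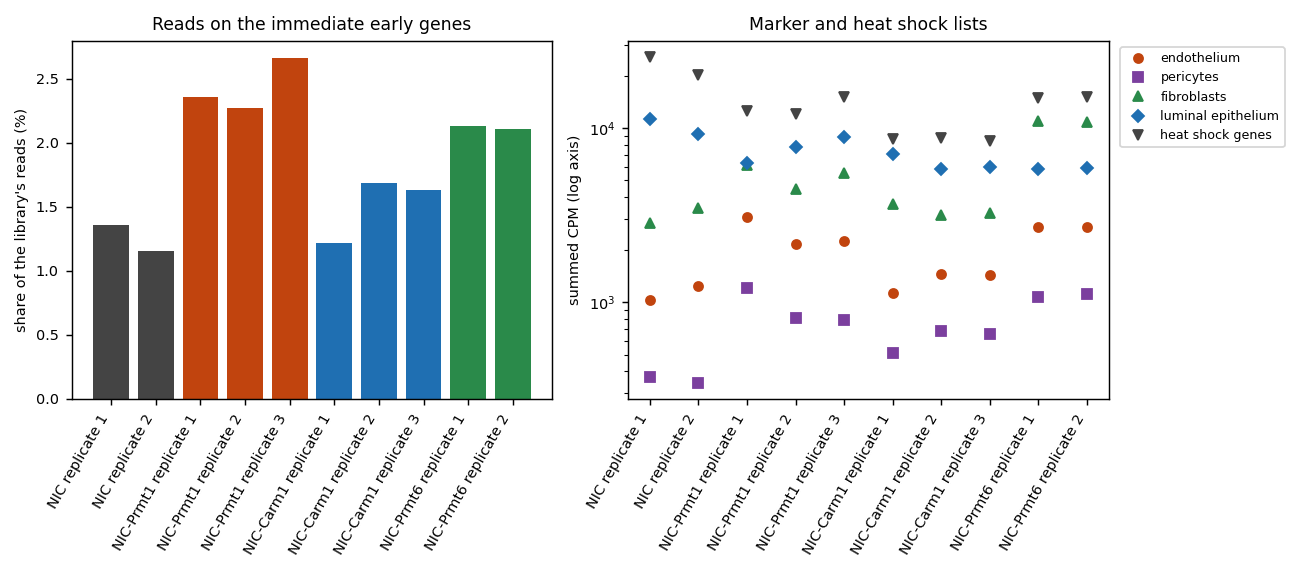
Left, the share of each library's reads (%) on the 10 genes. Right, summed CPM on a log axis for 4 marker lists and the heat shock genes, with 1 symbol per library; endothelial, pericyte and fibroblast sums are higher in NIC-Prmt1 and NIC-Prmt6 than in NIC, and luminal and heat shock sums are lower.

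Among themselves the 10 genes did not follow 1 pattern. With each gene's log2 value scaled to mean 0 and SD 1 over the 10 libraries, the mean of the 10 was highest in NIC-Prmt1 replicate 3 (1.42) and lowest in NIC replicate 2 (-1.03) and NIC-Carm1 replicate 1 (-1.001). The root mean square distance of a gene from that mean profile was smallest for Fosb (0.308), Ier2 (0.359) and Atf3 (0.391), and largest for Jund (0.782) and Btg2 (0.932). Over 12557 other genes the median distance was 1.26, but each of the 10 genes is itself part of the mean profile. Its distance is therefore smaller by construction, and the median is no test of likeness. Of the other genes, 0.0796% were nearer than Fosb, 19.3% nearer than Jund and 29% nearer than Btg2. The 8 genes nearest to the mean profile, over 10 libraries, were Lmo1 (0.244), Dusp2 (0.274), Cd164 (0.282), Sertad1 (0.287), Rarg (0.291), Chrnb1 (0.294), Lasp1 (0.300) and Hpcal1 (0.301). Dusp2, another MAP kinase phosphatase, was at 447 and 350 normalised reads in NIC, 790, 703 and 836 in NIC-Prmt1, 390, 523 and 517 in NIC-Carm1, and 668 and 698 in NIC-Prmt6.

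The lists of related genes that follow are read against the same share of all genes called by limma, which was 15.2% higher and 14.4% lower in NIC-Prmt1, 6.65% and 9.36% in NIC-Carm1, and 19.0% and 17.8% in NIC-Prmt6, each against NIC. All of these lists were chosen with earlier results of these data known, so their counts are descriptions and no test of a list. Of 27 other immediate early genes, 7 rose and 1 fell in NIC-Prmt1 against NIC (median log2 difference 0.24), 3 rose and 15 fell in NIC-Carm1 (-0.55), and 9 rose and 1 fell in NIC-Prmt6 (0.25), all by limma. With nearly identical libraries averaged, 4 were higher and 1 lower in NIC-Prmt1, 0 and 5 in NIC-Carm1, and 3 and 1 in NIC-Prmt6. Klf2, a factor induced by fluid shear in endothelium, was at 825 and 867 normalised reads in NIC and at 3143, 3898 and 4982 in NIC-Prmt1, a log2 difference of 2.22 ± 0.30 (limma adjusted p = 0.00127). Klf4, an epithelial differentiation factor, was at 10555 and 8091 in NIC and at 19079 and 18543 in NIC-Prmt6, a difference of 1.03 ± 0.15 (limma adjusted p = 0.00111). Ier3, a survival gene, went the other way, from 37072 and 45811 normalised reads in NIC to between 20005 and 22920 in the NIC-Prmt1 libraries (log2 difference -0.96 ± 0.12, limma adjusted p = 0.00106). Fosl1, the FOS family member FRA-1, was at 3573 and 2035 in NIC and at 639, 387 and 304 in NIC-Carm1 (-2.67 ± 0.31, limma adjusted p = 0.00110). Gadd45b, a stress response gene, fell by 1.49 ± 0.13 on the log2 scale in NIC-Carm1 (limma adjusted p = 3.91e-04). Between PRMT genotypes, 16 of the 27 were higher in NIC-Prmt1 than in NIC-Carm1 and 0 lower (14.9% and 11.8% of all genes), and 17 were lower in NIC-Carm1 than in NIC-Prmt6 and 1 higher (20.9% and 18.4% of all genes).

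Kinases and factors that act upstream of these 10 genes were read from 2 lists, and their bZIP partners from another. Of 21 genes of the MAP kinase cascade, 2 rose and 2 fell in NIC-Prmt1 against NIC, 4 and 4 in NIC-Carm1, and 6 and 2 in NIC-Prmt6, with medians between -0.03 and 0.11. Where 14.4% to 19.0% of all genes were called in a direction in NIC-Prmt1 or NIC-Prmt6, such counts are no result about this list. Averaging nearly identical libraries left 1 higher and 2 lower in NIC-Prmt1, 0 and 1 in NIC-Carm1, and 0 and 0 in NIC-Prmt6. Map2k3, an activator of p38, was lower in NIC-Prmt1 (-0.85 ± 0.13, limma adjusted p = 0.00236) and in NIC-Carm1 (-1.26 ± 0.13, limma adjusted p = 7.55e-04). Of 13 serum response factor, ternary complex and CREB regulators, 4 rose and 2 fell in NIC-Prmt1, 0 and 3 in NIC-Carm1, and 6 and 0 in NIC-Prmt6, and with averaging 2 and 0, 0 and 0, and 4 and 0. Elk3, a ternary complex factor, was at 1049 and 1179 normalised reads in NIC, 2878, 2054 and 2327 in NIC-Prmt1, and 2537 and 2328 in NIC-Prmt6. Its log2 difference was 1.11 ± 0.14 (limma adjusted p = 9.17e-04) in NIC-Prmt1 and 1.13 ± 0.15 (limma adjusted p = 6.29e-04) in NIC-Prmt6. Of 13 other AP-1 and bZIP partners, 1 rose and 3 fell in NIC-Prmt1, 0 and 7 in NIC-Carm1, and 3 and 1 in NIC-Prmt6, and with averaging 1 and 2, 0 and 1, and 1 and 0. The counts for NIC-Prmt1 and NIC-Prmt6 are near the shares of all genes.

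More feedback genes of ERK signalling fell than rose. Of 18 in the list, 2 rose and 7 fell in NIC-Prmt1 against NIC (median log2 difference -0.30), 0 and 3 in NIC-Carm1 (-0.18), and 2 and 6 in NIC-Prmt6 (-0.34), beside 14.4%, 9.36% and 17.8% of all genes called lower. In the fit with averaged libraries, 1 rose and 2 fell in NIC-Prmt1, 0 and 0 in NIC-Carm1, and 0 and 2 in NIC-Prmt6. Dusp4, a nuclear MAP kinase phosphatase related to Dusp1, was at 8472 and 6899 normalised reads in NIC, 2584, 2857 and 2547 in NIC-Prmt1, 5387, 4223 and 4026 in NIC-Carm1, and 2618 and 2677 in NIC-Prmt6. Every PRMT library was below both NIC libraries, with log2 differences of -1.52 ± 0.14 (limma adjusted p = 2.80e-04), -0.76 ± 0.14 (limma adjusted p = 0.00671) and -1.53 ± 0.15 (limma adjusted p = 1.39e-04). Dusp6, the ERK-specific phosphatase, was at 12243 and 13055 in NIC and at 7139 and 7067 in NIC-Prmt6 (-0.83 ± 0.14, limma adjusted p = 0.00177). Dusp2, whose reads are given above, was called higher in NIC-Prmt1 (0.97 ± 0.16, limma adjusted p = 0.00288) and in NIC-Prmt6 (0.79 ± 0.18, limma adjusted p = 0.00709). It was picked as a gene near the mean profile of the immediate early genes, which was higher in these genotypes than in NIC. Its rise there therefore follows from that choice, and these p-values are no separate test of it. The other genes of the list called higher, named after their values were seen, were the signalling inhibitors Spry1 in NIC-Prmt1 (0.54 ± 0.15, limma adjusted p = 0.0231) and Spry4 in NIC-Prmt6 (0.63 ± 0.13, limma adjusted p = 0.00489).

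Of 16 genes in a list of known AP-1 targets, 15 were tested, all but Mmp10, and 3 rose and 6 fell in NIC-Prmt1 against NIC, 1 and 6 in NIC-Carm1, and 4 and 3 in NIC-Prmt6. The NIC-Prmt6 counts are near the 19.0% and 17.8% of all genes called higher and lower, and the 3 higher in NIC-Prmt1 are near its 15.2%. After averaging nearly identical libraries, 2 rose and 5 fell in NIC-Prmt1, 0 and 5 in NIC-Carm1, and 3 and 1 in NIC-Prmt6. Il6, a cytokine gene, was at 3356 and 3341 normalised reads in NIC, 6166, 5536 and 5618 in NIC-Prmt1, 2280, 2863 and 2853 in NIC-Carm1, and 8243 and 8296 in NIC-Prmt6. It rose by 0.78 ± 0.11 in NIC-Prmt1 (limma adjusted p = 0.00148) and by 1.30 ± 0.12 in NIC-Prmt6 (limma adjusted p = 1.17e-04), both log2. Hmox1, the heme oxygenase, was at 14427 and 7277 in NIC and between 1872 and 3786 in NIC-Prmt1 (-1.87 ± 0.30, limma adjusted p = 0.00267). Hbegf, an EGF receptor ligand, was at 3565 and 2534 in NIC and between 813 and 862 in NIC-Carm1 (-1.85 ± 0.15, limma adjusted p = 2.08e-04).

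In 2 stress lists, heat shock genes and ATF4 targets, some members fell in each PRMT genotype, beside 14.4%, 9.36% and 17.8% of all genes called lower in NIC-Prmt1, NIC-Carm1 and NIC-Prmt6. Of 11 heat shock genes, 0 rose and 8 fell in NIC-Prmt1 against NIC (median -0.89), 0 and 10 in NIC-Carm1 (-1.38), and 0 and 6 in NIC-Prmt6 (-0.88), and their summed level was 20177 to 25599 CPM in NIC, 12013 to 15018, 8461 to 8769 and 14883 to 15153. Averaging nearly identical libraries left 7, 8 and 3 of them called lower. Hsph1, a chaperone of the HSP110 family, was at 19791 and 20693 normalised reads in NIC and between 4207 and 10657 in all 8 PRMT libraries. Of 10 ATF4 targets, 0 rose and 7 fell in NIC-Prmt1, 0 and 8 in NIC-Carm1, and 0 and 6 in NIC-Prmt6, with medians of -1.07, -0.85 and -0.996, and with averaging 6, 3 and 4 were called lower. Chac1, a glutathione-degrading enzyme, was at 1103 and 1045 in NIC and between 37.3 and 92.0 in the PRMT libraries. Of 10 p53 targets, a pathway that also acts on Btg2, 2 rose and 4 fell in NIC-Prmt1, 0 and 6 in NIC-Carm1, and 3 and 0 in NIC-Prmt6, and with averaging 1 and 2, 0 and 2, and 1 and 0. Cdkn1a, the cell cycle inhibitor p21, was at 9077 and 8651 in NIC and at 2959, 3602 and 3336 in NIC-Carm1 (-1.43 ± 0.10, limma adjusted p = 1.16e-04). The part of these lists in the differences of the 10 genes was not tested.

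**Figure D5:**
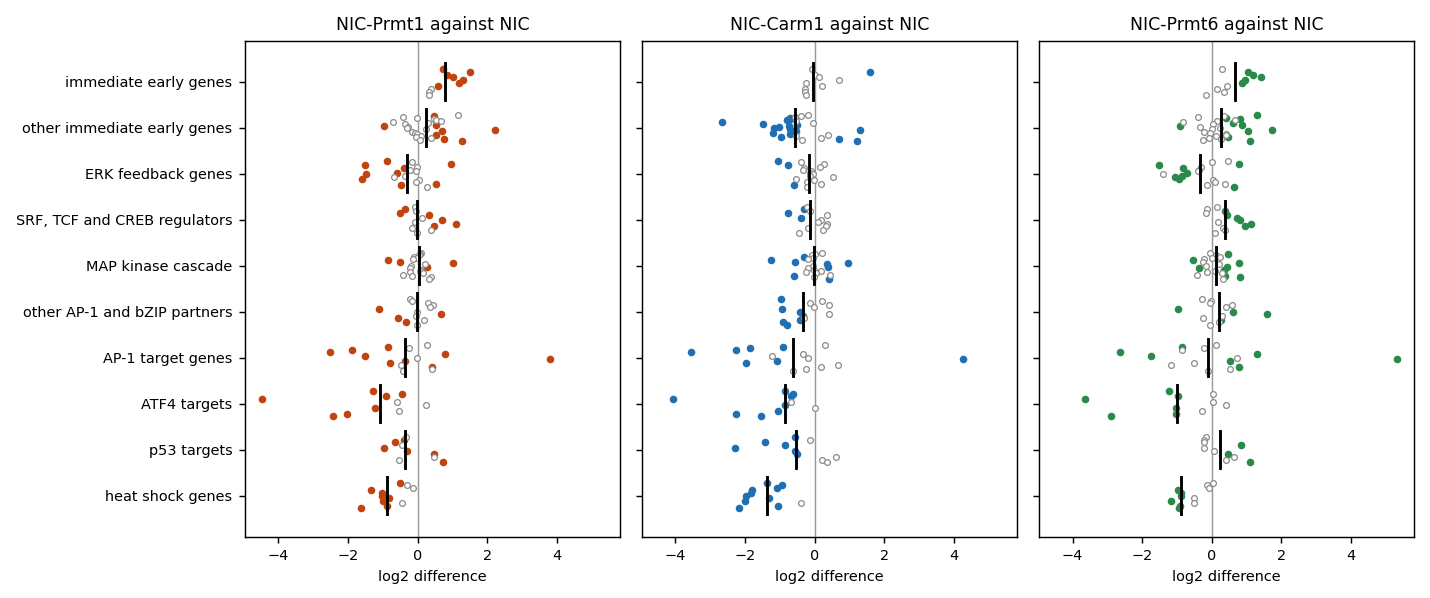
Log2 differences from NIC for every tested gene of the immediate early genes and 9 related lists, in 1 panel per PRMT genotype; coloured points have a limma adjusted p under 0.05, white points do not, and black bars are list medians. The immediate early genes have medians of 0.79, -0.04 and 0.66, the heat shock genes -0.89, -1.38 and -0.88.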

How the data were processed

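RNA was sequenced from 10 libraries of mouse mammary epithelial cells, from poly-A RNA with a TruSeq kit, per the labels. Per the submitters' processing notes, TopHat2 2.0.10, HTSeq 0.6.0 and DESeq 1.18.0 were used with mm10; no source used here gives the annotation or strand setting. The deposited values are a normalised signal, the read count per gene divided by a size factor: 100% of values were whole multiples of the library's step within 0.01, which recovered the reads. The 15694 genes at 10 or above in 2 or more libraries were tested with limma 3.58.1 (trend) in R 4.3.3 on log2(value + 1). The fit held all 10 libraries and 4 group means, and p-values were adjusted by Benjamini-Hochberg over all genes with a threshold of 0.05; log2 differences understate changes of low genes. No raw counts were held, so the edgeR test planned for counts became an alternative on recovered reads (edgeR 4.0.16, DESeq2 1.42.0). Other alternatives were the 2 groups alone, a replicate block, pseudocounts of 0.5 and 5, no filter or a filter of 50, TMM and upper-quartile rescaling, nearly identical libraries averaged, and each library left out. The fit was also run on simulated counts drawn as independent libraries with the same dispersion for every gene. These data hold nearly identical pairs, so that run does not check the calls reported here. Named list genes are the 2 called genes with the smallest adjusted p per list in each comparison with NIC, and the text gives examples of them. The nearest genes are the 8 with the smallest distance, at a mean log2 CPM of at least 1. Exon lengths are unions of GENCODE exons. The 10 genes and all lists were chosen with earlier results of these data known.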

Additional observations from a re-analysis of the deposited data

How the results depend on the processing

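Of the 27 calls on the 10 genes, 12 were kept in all 21 alternatives: Fos, Fosb, Dusp1 and Btg2 in NIC-Prmt1 against NIC, Btg2 in NIC-Carm1 against NIC, Egr1 and Dusp1 in NIC-Prmt6 against NIC, Fosb, Egr1 and Dusp1 in NIC-Prmt1 against NIC-Carm1, and Egr1 and Dusp1 in NIC-Carm1 against NIC-Prmt6. No called difference changed sign in any alternative. Averaging nearly identical libraries, which leaves NIC-Prmt6 with 1 library whose spread is taken from the other genotypes, lowered the counts of changed genes over the whole table. In the order NIC-Prmt1, NIC-Carm1 and NIC-Prmt6 against NIC, then NIC-Prmt1 against NIC-Carm1, NIC-Prmt1 against NIC-Prmt6 and NIC-Carm1 against NIC-Prmt6, they went from 4645, 2513, 5778, 4199, 1175 and 6157 to 2601, 340, 1664, 1355, 21 and 1262. The same step moved the members called higher from 5 to 2 in NIC-Prmt6 against NIC, from 9 to 3 in NIC-Prmt1 against NIC-Carm1 and from 1 to 0 in NIC-Carm1 against NIC-Prmt6, and those lower in the last from 4 to 2. Fits on the 2 groups alone gave 2775 changed genes in NIC-Prmt1 and 1441 in NIC-Carm1 against NIC. They gave 4 members higher in NIC-Prmt1 against NIC-Carm1, beside 2825 changed genes. In NIC-Carm1 against NIC-Prmt6 they gave 7 members lower, beside 7065 changed genes. Both edgeR and DESeq2 called 2 members higher in NIC-Carm1 against NIC, and DESeq2 gave 2119 changed genes and 1 member higher in NIC-Prmt1 against NIC-Prmt6. The cause of these shifts was not tested.

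The replicate numbers were not shown to pair libraries, since the correlation of deviations between same-numbered libraries lay between -0.13 and 0.10 over 13 pairs. With the replicate block, 1667 genes changed in NIC-Carm1 against NIC and 571 in NIC-Prmt1 against NIC-Prmt6, Fos, Jund and Ier2 lost their calls in NIC-Prmt1 against NIC-Carm1, and Dusp1 in NIC-Carm1 against NIC was at -0.056. The block changed no other call on the 10 genes.

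With 1 library left out, changed genes numbered 2277 to 5642, 709 to 3380, 2661 to 6633, 2626 to 4694, 47 to 2237 and 2575 to 6784, in the order above. The members called higher numbered 4 to 7, 1 to 2, 3 to 6, 6 to 8, 0 to 2 and 0 to 1, and those lower in the last comparison 3 to 6. Differences that changed sign were not called on either side. In NIC-Carm1 against NIC with 1 library left out, Fosb ran from -0.56 to 0.046, Egr1 from -0.0076 to 0.37, Atf3 from -0.19 to 0.033 and Dusp1 from -0.18 to 0.18, where Fosb and Atf3 were above 0 without NIC replicate 1 and Egr1 below 0 without NIC-Carm1 replicate 2. Dusp1 was below 0 without NIC replicate 2 (-0.18), NIC-Carm1 replicate 2 (-0.054) or replicate 3 (-0.07), in DESeq2 (-0.0011) and with averaging (-0.062). In the same way Btg2 ran from -0.23 to 0.091 in NIC-Prmt1 against NIC-Carm1, above 0 without NIC-Prmt1 replicate 1. Junb in NIC-Prmt1 against NIC-Prmt6 ran from -0.12 to 0.096, above 0 without NIC-Prmt1 replicate 2, and was at 0.048 after upper-quartile rescaling. Jund in NIC-Carm1 against NIC-Prmt6 ran from -0.16 to 0.024, above 0 without NIC-Carm1 replicate 3.

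Upper-quartile rescaling moved the split of called genes from 1044 higher and 1469 lower to 1311 and 1230 in NIC-Carm1 against NIC, and from 399 and 776 to 583 and 542 in NIC-Prmt1 against NIC-Prmt6. Depth does not limit the 10 genes, each at 6703 normalised reads or more in every library. The limits are 2 or 3 libraries per group, 2 pairs of nearly identical libraries, and transgene levels that check only the NIC-Prmt6 label.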
